A study of Mus musculus with 10 samples.

Results

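Transcript counts of 7 genes, Mex3a, Clu, Cd44, Prom1, Agr2, Muc1 and Onecut2, were examined in pieces of mouse pancreas whose acinar cells could lose the insulin receptor gene Insr. The 7 are known from injured, regenerating or progenitor-like epithelium, and they are 7 of the 24421 genes counted. They were taken from the count table by symbol, and all 7 passed the filter on low counts, which 13688 genes passed. Mex3a was chosen by its p-value and fold change in the comparisons of KO and of Het libraries with WT libraries, where it ranked 1 and 4 among all genes tested. The other 6 were set beside it with results of the same comparisons known. Levels of the 7 genes against WT are therefore a description, and counts past a threshold in those comparisons are printed only beside the same share of all genes, with nothing read from them. Tests of the 7 are given for KO against Het.

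The mice were females aged 12 weeks, and each gave 1 library from a piece of the tail of the pancreas. The labels name the groups Insr WT (Insrw/w, 0 floxed alleles, 3 mice), Insr Het (Insrw/f, 1 floxed allele, 3 mice) and Insr KO (Insrf/f, 2 floxed alleles, 4 mice). Mice of all 3 groups, the WT controls included, carried Ptf1aCreER, a tamoxifen-activated Cre recombinase driven by the acinar gene Ptf1a, and nTnG, a nuclear fluorescent reporter of Cre activity. Cre acts on Insr in cells that express Ptf1a, so other cells of the piece keep the receptor, and the tamoxifen schedule is not given in the sources used here. Each library is named below by its genotype label and mouse number. The p-values set a difference between groups against the spread between libraries, and treat the libraries as independent. Nothing states whether the mice shared litters or runs.

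Gene counts per library ranged from 11718559 to 19024351 and overlapped between the groups. Levels are given as CPM, the share of a library's counts scaled by TMM factors, which correct for differences in makeup between libraries. The factors ran from 0.596 (KO-2126) to 3.53 (WT-2404), so a sum of CPM is not a plain share of counts. Insr, the targeted gene, ran from 21.0 to 40.5 CPM over WT, 28.2 to 44.2 over Het and 22.7 to 35.4 over KO libraries. It did not pass the threshold of an adjusted p of 0.05 in edgeR (adjusted p = 0.864 for KO against WT, log2 fold change 0.09, SE 0.26), and counts over the whole gene from a whole piece do not check whether acinar cells lost it. All genes of a list of 14 acinar markers were detected in every library. Their share was 7.99% of the counts of WT-2404 (Wilson 95% interval 7.97% to 8.0%, counting error only), 33.9% of those of WT-1860 and 41.0% of those of WT-2067. It was 41.4% to 45.1% in Het and 36.9% to 46.5% in KO libraries. By this share every WT library lay below every Het library, narrowly for WT-2067 and Het-2066, while WT and KO libraries overlapped. Leaving out WT-2404, the lowest, could not change that order. By the mean log2 CPM of the same list, WT-2067 (11.31) lay above Het-2042 (11.28). WT-2404 stands furthest apart, and several results that rest on it are given with and without it. In bulk tissue, fewer cells of a type and less RNA per cell cannot be told apart.

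Mex3a encodes an RNA-binding protein with KH domains and a RING finger, known as a marker of slowly cycling progenitors in the intestinal crypt. In the pancreas, injured acinar cells can lose enzyme expression and take on duct-like features, a process called acinar-to-ductal metaplasia. Clu encodes clusterin, a secreted chaperone that is raised in many injured epithelia, and Cd44 encodes a cell surface receptor for hyaluronan. Prom1 encodes prominin-1 (CD133), a membrane protein of the apical surface of ducts and centroacinar cells. Onecut2 encodes a homeobox transcription factor of the endodermal lineage. Agr2 encodes a protein disulfide isomerase needed for mucin folding in the endoplasmic reticulum, and Muc1 a membrane mucin of the apical surface.

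The genes are not clustered in the genome. In the GENCODE M21 annotation of GRCm38, which is the mm10 build named in the submitters' processing notes, Mex3a lies at chr3:88532395-88541396 on the plus strand and Muc1 at chr3:89229057-89233381 on the plus strand. These neighbours on 1 chromosome are 688 kb apart. Clu lies at chr14:65968483-65981547 (plus), Cd44 at chr2:102811141-102901665 (minus), Prom1 at chr5:43993620-44102032 (minus) and Agr2 at chr12:35992907-36004087 (plus). Exons of other genes overlap 7.91% of the exon bases of Prom1 and 1.42% of those of Mex3a, and 0% of those of Clu, Cd44, Agr2 and Muc1.

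RefSeq promoter windows on GRCm38.p6, from 250 bases before to 50 bases after a transcript start, were matched for 5 of the 7 genes. Windows of 4 genes are printed, those of Mex3a, Cd44 and Prom1, which were lower in every KO than in every WT library, and that of Muc1, which was not. Capitals mark every match, on either strand, of TGANTCA (the AP-1 site), GGAATG (TEAD), GGGCGG (the GC box) and TATAAA (the TATA box), and the sequences run 5′ to 3′ on the strand of the gene. The Mex3a window, chr3:88531696-88531995, lies wholly upstream of the GENCODE gene model and holds 1 GC box and none of the other motifs. The Cd44 window, chr2:102901616-102901915, holds 1 GC box. The Prom1 window, chr5:44101687-44101986, holds 1 AP-1 match and 1 GC box, and another Prom1 window further downstream also holds 1 AP-1 match. The Muc1 window, chr3:89228806-89229105, holds 1 TEAD match, 2 GC boxes and 1 TATA box.
Mex3a: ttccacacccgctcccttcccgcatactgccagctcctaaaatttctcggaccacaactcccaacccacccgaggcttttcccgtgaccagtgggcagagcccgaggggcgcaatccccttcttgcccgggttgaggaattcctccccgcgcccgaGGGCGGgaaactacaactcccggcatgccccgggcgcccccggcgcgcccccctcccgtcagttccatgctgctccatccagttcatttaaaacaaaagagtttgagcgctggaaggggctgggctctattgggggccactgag
Cd44: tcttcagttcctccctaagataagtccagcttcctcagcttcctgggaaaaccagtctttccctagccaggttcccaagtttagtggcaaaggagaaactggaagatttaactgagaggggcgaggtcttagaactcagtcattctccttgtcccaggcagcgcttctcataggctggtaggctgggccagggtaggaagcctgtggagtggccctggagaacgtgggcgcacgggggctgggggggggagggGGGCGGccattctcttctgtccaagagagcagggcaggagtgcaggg
Prom1: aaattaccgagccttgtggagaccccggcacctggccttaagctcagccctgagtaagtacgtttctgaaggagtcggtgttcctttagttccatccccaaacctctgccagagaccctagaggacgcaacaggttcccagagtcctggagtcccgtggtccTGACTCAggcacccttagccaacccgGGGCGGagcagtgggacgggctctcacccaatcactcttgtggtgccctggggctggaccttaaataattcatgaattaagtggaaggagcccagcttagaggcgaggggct
Muc1: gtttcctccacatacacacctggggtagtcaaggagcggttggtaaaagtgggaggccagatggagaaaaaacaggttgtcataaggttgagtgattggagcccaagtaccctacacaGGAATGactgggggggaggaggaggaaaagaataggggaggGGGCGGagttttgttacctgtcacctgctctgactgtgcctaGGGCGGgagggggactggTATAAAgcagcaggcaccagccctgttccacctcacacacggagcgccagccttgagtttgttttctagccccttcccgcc
Of all 32851 windows, 7.81% held the AP-1 letters, 14.7% the TEAD letters, 35.7% the GC box and 13.6% the TATA box. The Agr2 window held none of the 4 motifs. The matches are a description of the letters in these windows and not of binding.

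Mex3a was the member with the clearest gap between the groups. The WT libraries had 7.17 (WT-2404), 6.18 (WT-1860) and 4.59 CPM (WT-2067). The Het libraries had 1.05 (Het-2066), 1.49 (Het-1770) and 1.90 CPM (Het-2042), and the KO libraries 1.30 (KO-2079), 0.922 (KO-2070), 1.61 (KO-2124) and 0.606 CPM (KO-2126). The lowest WT library was thus above the highest of the 7 libraries with a floxed allele, and Het and KO overlapped. For KO against WT the log2 fold change was -2.37 (SE 0.36), a level 5.18-fold lower, and for Het against WT it was -2.0 (SE 0.39), 4.0-fold lower. These levels rest on 75 to 429 counts in WT, 12 to 31 in Het and 6 to 35 in KO libraries. Leaving out WT-2404 could not close the gap, since WT-2067 set the lower edge of the WT group, so nothing is read from that. Without WT-2404 the log2 fold changes of Mex3a were -2.21 for KO and -1.82 for Het against WT.

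**Figure D1:**
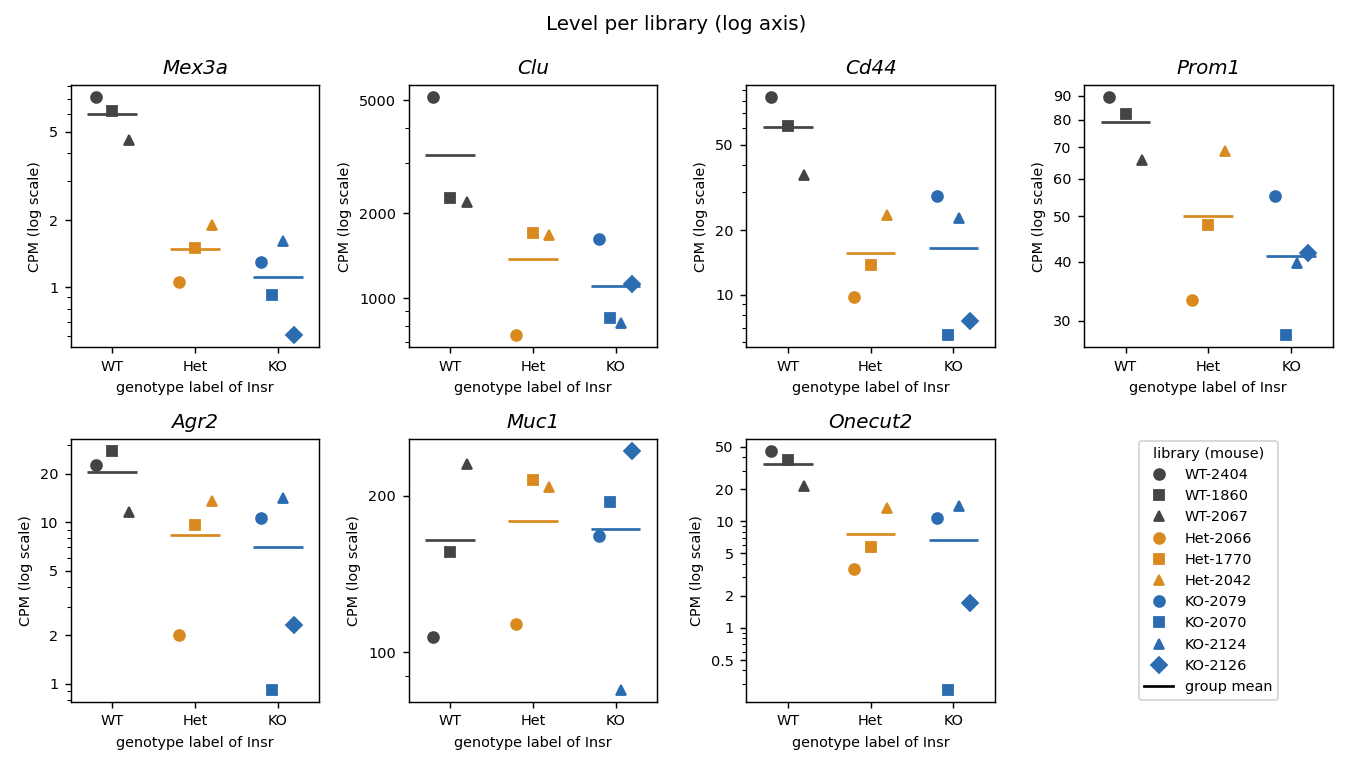
Level of each of the 7 genes per library in CPM on a log axis, by genotype label, with 1 point per mouse and a bar at the group mean. Mex3a, Cd44, Clu and Onecut2 are lower in all 7 libraries with a floxed allele than in any WT library, Prom1 and Agr2 are partly so, and Muc1 shows no such order.

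Of the other MEX3 genes, Mex3d was also lower in all libraries with a floxed allele (all genes: 5.84%), with a smaller difference. Mex3b lay below WT in Het libraries (at most 1.17 CPM, beside at least 1.29 in WT), as did 13.5% of all genes. In KO libraries Mex3b overlapped WT, with as few as 3 counts. Mex3c overlapped WT in both. Per kilobase of exon, the scale on which genes can be compared, the mean for Mex3a was 1.03 ± 0.225 CPM per kb over WT (SD, n = 3), 0.256 ± 0.0736 over Het (SD, n = 3) and 0.192 ± 0.0760 over KO libraries (SD, n = 4). Mex3c was the family member with the highest level, with 4.46 ± 0.390 CPM per kb over WT (SD, n = 3) and 3.89 ± 0.965 over KO libraries (SD, n = 4). Mex3b stood lower, with 0.496 ± 0.151 CPM per kb over WT (SD, n = 3) and 0.278 ± 0.162 over KO libraries (SD, n = 4). In WT the order of the 4 means was Mex3c, Mex3d, Mex3a and Mex3b, and no 2 neighbours overlapped in their ranges. In KO libraries Mex3a lay below Mex3b in the means, with ranges that overlapped. The log2 fold changes in KO against WT were -0.85 (SE 0.53) for Mex3b, -0.21 (SE 0.21) for Mex3c and -0.46 (SE 0.26) for Mex3d, and none passed an adjusted p of 0.05 in edgeR (adjusted p = 0.34, 0.558 and 0.29). Mex3d ran from 5.03 to 5.39 CPM in WT, 2.02 to 4.05 in Het and 3.13 to 4.08 in KO libraries. Whether the family members differ from Mex3a in their response was not tested.

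**Figure D2:**
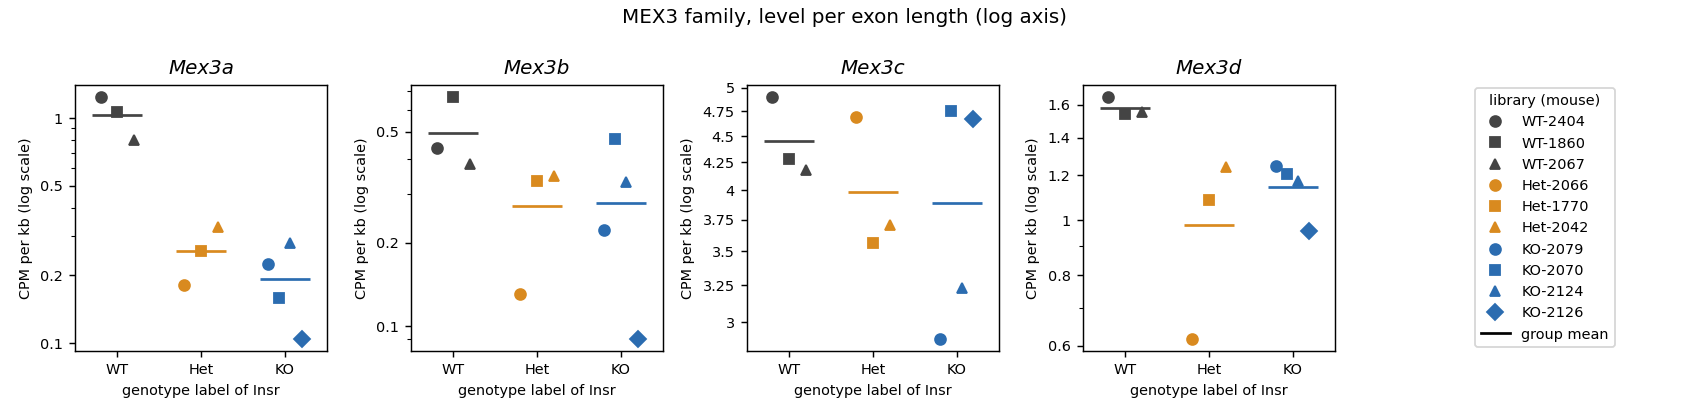
CPM per kilobase of exon, on log axes, of the 4 MEX3 genes per library, by genotype label, with 1 point per mouse and a bar at the group mean. Mex3a runs from 0.795 to 1.24 in WT and from 0.105 to 0.279 in KO libraries, while the ranges of Mex3b and Mex3c overlap between WT and KO, and those of Mex3d (0.959 to 1.25 in KO, from 1.54 in WT) do not.

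Cd44 was also lower in every library with a floxed allele. In WT it stood at 83.5 (WT-2404), 60.8 (WT-1860) and 36.3 CPM (WT-2067). The Het libraries had 9.73 (Het-2066), 13.8 (Het-1770) and 23.6 CPM (Het-2042). The KO libraries split, with 28.9 CPM in KO-2079 and 22.7 in KO-2124 against 6.45 in KO-2070 and 7.57 in KO-2126. Against WT, log2 fold changes were -1.85 (SE 0.52) for KO and -1.93 (SE 0.57) for Het, and -1.51 and -1.60 without WT-2404. The hyaluronan list holds enzymes that make or cut this ligand, the ERM linkers of CD44 to actin, partners of CD44 and the splicing factors Esrp1 and Esrp2. Of its 16 tested genes, 13 were lower in KO against WT, with a median log2 fold change of -1.04 where the median of all genes was 0.03. Without WT-2404 the median of the list was -0.81. At an unadjusted p under 0.05, 8 were lower, where 13.9% of all genes were, and 1 was higher, and 0 passed after adjustment over all genes in edgeR. Vcan, the hyaluronan-binding proteoglycan versican, was at -2.17 (SE 0.46) and Hmmr, another hyaluronan receptor, at -1.73 (SE 0.82). Esrp2 was at 0.70 (SE 0.31) and Rdx, which encodes radixin, at 0.30 (SE 0.20). Splice forms of Cd44 cannot be read from gene counts.

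Clu had by far the most counts of the 7 genes. It reached 5148 CPM in WT-2404, beside 2265 (WT-1860) and 2184 CPM (WT-2067). Het libraries had 740 (Het-2066), 1706 (Het-1770) and 1679 CPM (Het-2042). KO libraries had 1627 (KO-2079), 855 (KO-2070), 819 (KO-2124) and 1128 CPM (KO-2126). All 7 were below the lowest WT library, but the size of the difference rested in part on WT-2404. For KO against WT the log2 fold change was -1.53 (SE 0.47), and -1.0 without WT-2404. For Het against WT it was -1.22 (SE 0.51), and -0.68 without that library.

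Prom1 had the narrowest spread of the members that were lower. Its WT levels were 89.5 (WT-2404), 82.3 (WT-1860) and 65.6 CPM (WT-2067). The Het libraries had 33.2 (Het-2066), 48.0 (Het-1770) and 68.7 CPM (Het-2042), so Het-2042 lay inside the WT range. The KO libraries, at 55.0 (KO-2079), 27.9 (KO-2070), 39.7 (KO-2124) and 41.7 CPM (KO-2126), lay below it. Against WT, log2 fold changes were -0.94 (SE 0.28) for KO and -0.66 (SE 0.30) for Het.

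Onecut2 varied more between libraries than 99.8% of the genes tested, by the SD of log2 CPM over all 10. Levels of 45.7 (WT-2404), 37.3 (WT-1860) and 21.6 CPM (WT-2067) were found in WT. The Het libraries had 3.6 (Het-2066), 5.78 (Het-1770) and 13.3 CPM (Het-2042). In KO libraries it ran from 14.0 CPM in KO-2124 and 10.8 in KO-2079 to 1.72 in KO-2126 and 0.263 in KO-2070, the last from 2 counts. All 7 lay below the WT range, and the highest KO library was 53.2 times the lowest. With a log2 fold change of -2.31 (SE 0.79) for KO and -2.19 (SE 0.88) for Het against WT, its errors were the widest of the 7. Without KO-2124 the first was -2.91, and without Het-2042 the second was -2.89. Without WT-2404 the 2 were -2.03 and -1.91. Of the related factors, Onecut3 had a log2 fold change of -2.37 (SE 0.74) in KO against WT, with 5.57 to 8.10 CPM in WT libraries and 0 counts in KO-2070. Onecut1, known from duct and endocrine progenitors, was at 0.11 (SE 0.43), with overlapping ranges. Neither passed after adjustment over all genes in edgeR (adjusted p = 0.125 and 0.894).

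Agr2 split the KO libraries in the same places as Onecut2. WT libraries had 22.6 (WT-2404), 27.6 (WT-1860) and 11.6 CPM (WT-2067). Het libraries had 2.02 (Het-2066), 9.60 (Het-1770) and 13.5 CPM (Het-2042). Among KO libraries, 10.6 (KO-2079) and 14.1 CPM (KO-2124) stood beside 0.922 (KO-2070) and 2.32 CPM (KO-2126). The highest KO and the highest Het library lay above the lowest WT library, so the ranges overlapped. Log2 fold changes against WT were -1.49 (SE 0.75) for KO and -1.29 (SE 0.82) for Het. The paralog Agr3 had 1 count in all libraries together and was not tested.

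Muc1 behaved unlike the other 6. It was at 107 (WT-2404), 156 (WT-1860) and 230 CPM (WT-2067) in WT. The Het libraries had 113 (Het-2066), 214 (Het-1770) and 208 CPM (Het-2042), and the KO libraries 167 (KO-2079), 194 (KO-2070), 84.7 (KO-2124) and 244 CPM (KO-2126). The groups overlapped throughout, and WT-2404, the highest library for 5 of the other members, was the lowest WT library for Muc1. Log2 fold changes against WT were 0.07 (SE 0.38) for KO and 0.12 (SE 0.41) for Het, with no stable sign, since without WT-2404 they were -0.18 and -0.10. By library size alone they were -1.05 and -1.01, where the median of all genes was -1.17 and -1.36.

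As a set, 6 of the 7 genes were lower in KO against WT, with a median log2 fold change of -1.53, where 48.2% of all genes tested were lower. Ranges did not overlap for 5 of the 7 in KO against WT, beside 9.17% of all genes tested, and for 4 of the 7 in Het against WT, beside 13.5%. For Mex3a, Clu, Cd44 and Onecut2, 4 of the 7, all libraries with a floxed allele lay below all WT libraries, as for 5.84% of all genes. At an unadjusted p under 0.05, 5 of the 7 were lower in KO against WT, beside 13.9% of all genes, and 5 in Het against WT, beside 11.6%. The latter count was 2 without WT-2404 or Het-2066 and 3 without WT-1860 or Het-1770. The count over all genes, in either direction, fell as well, from 2714 of 13688 with all libraries. It was 1083 of 13768 without WT-2404, 1564 of 14214 without Het-2066, 2055 of 13889 without WT-1860 and 1850 of 14177 without Het-1770. Without WT-2404 ranges were separate for 5 and 4 of the 7, beside 9.94% and 15.2% of all genes. Leaving it out could not undo a separation, since WT-2067 was the lowest WT library for each of these genes. After adjustment edgeR called 0 of the 7 and 0 of 13688 genes (0% of all) in either comparison. Without WT-2067 it called 1933 and 1158 of 14172 genes. DESeq2 called 1009 of 13688 genes in KO against WT, among them Mex3a, Clu, Cd44 and Prom1. In Het against WT it called 400 of 13688, among them Mex3a and Cd44. Since these comparisons chose the set and share the WT libraries, nothing is read from the counts.

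KO against Het is the comparison that did not choose the genes. In it 0 of 7 passed the adjusted threshold (edgeR adjusted p = 1 for each) and 0 of 7 were at an unadjusted p under 0.05, beside 0% and 0.752% of all genes. The log2 fold change of Mex3a was -0.37 (SE 0.38, 95% interval -1.21 to 0.46), and that of Clu -0.31 (95% interval -1.33 to 0.70). Prom1 was at -0.28 (95% interval -0.89 to 0.33), Muc1 at -0.05 (-0.88 to 0.78) and Cd44 at 0.08 (-1.08 to 1.24). For Agr2, at -0.21, the interval ran from -1.92 to 1.51, and for Onecut2, at -0.12, from -1.92 to 1.68. These intervals span more than 2-fold in either direction for Cd44, Agr2 and Onecut2 and more than 2-fold lower for Mex3a and Clu, so the data do not show that KO and Het libraries had equal levels. In this comparison DESeq2 also called 0 genes, and edgeR found 103 genes at an unadjusted p under 0.05.

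**Figure D3:**
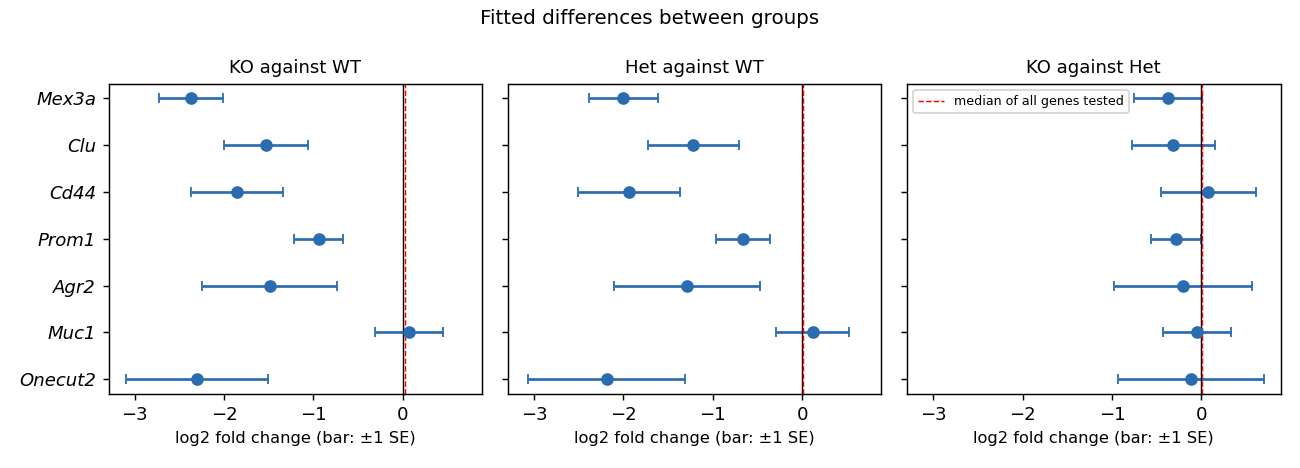
Log2 fold changes of the 7 genes in the 3 comparisons, with bars of 1 SE on either side and the median of all genes tested as a broken line. All members except Muc1 lie left of 0 against WT, by -0.66 to -2.37, and every member lies within -0.37 to 0.08 in KO against Het.

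Duct genes as a list were also lower, summing to 626 to 1266 CPM in WT and to 221 to 537 CPM in the 7 libraries with a floxed allele. Of 16 duct genes, 13 were lower in KO against WT, with a median of -0.82, and -0.60 without WT-2404. At an unadjusted p under 0.05, 8 were lower (all genes: 13.9%), and 0 passed after adjustment over all genes in edgeR. Krt7 (-1.97, SE 0.46) and Cftr (-1.89, SE 0.71) were lowest, and Sctr, the secretin receptor (0.26, SE 0.57), was highest. The level of each member was therefore also expressed as its log2 CPM minus the mean log2 CPM of the duct list in the same library. On this scale Mex3a averaged -1.58 ± 0.110 over WT (SD, n = 3), -2.73 ± 0.135 over Het (SD, n = 3) and -3.02 ± 0.278 over KO libraries (SD, n = 4). Its WT libraries, from -1.65 to -1.45, lay above all others, the highest of which was -2.62. Mex3a was chosen by its difference from WT in these same libraries. The share of all genes with separate ranges on this scale, or on the Epcam scale below, was not computed, so nothing is read from the separations. Cd44 also kept separate ranges, with 1.67 ± 0.310 over WT (SD, n = 3), 0.53 ± 0.377 over Het (SD, n = 3) and 0.53 ± 0.546 over KO libraries (SD, n = 4). Onecut2 was at 0.57 to 1.12 in WT libraries and at 0.23 or less in all others.

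Prom1, in contrast, stood level with the duct list, with 2.13 ± 0.146 over WT (SD, n = 3), 2.22 ± 0.257 over Het (SD, n = 3) and 2.10 ± 0.411 over KO libraries (SD, n = 4), a KO minus WT difference of -0.04. Clu differed by -0.53 and Agr2 by -1.20, each with overlapping ranges. Muc1 was 0.98 higher relative to the duct list in KO than in WT libraries, again with ranges that overlapped, from 2.23 to 3.98 in WT and from 2.82 to 5.23 in KO. The mean of Epcam, Cdh1, Cldn7 and Krt8 served as another reference. On it the KO minus WT difference was -2.62 for Onecut2, -1.61 for Mex3a, -1.37 for Agr2 and -1.31 for Cd44. It was -0.70 for Clu, -0.20 for Prom1 and 0.81 for Muc1. Of the 7 only Mex3a had WT libraries separate from all libraries with a floxed allele, and for Clu the KO libraries lay below WT. No share of all genes was computed on this scale, so nothing is read from these separations.

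**Figure D4:**
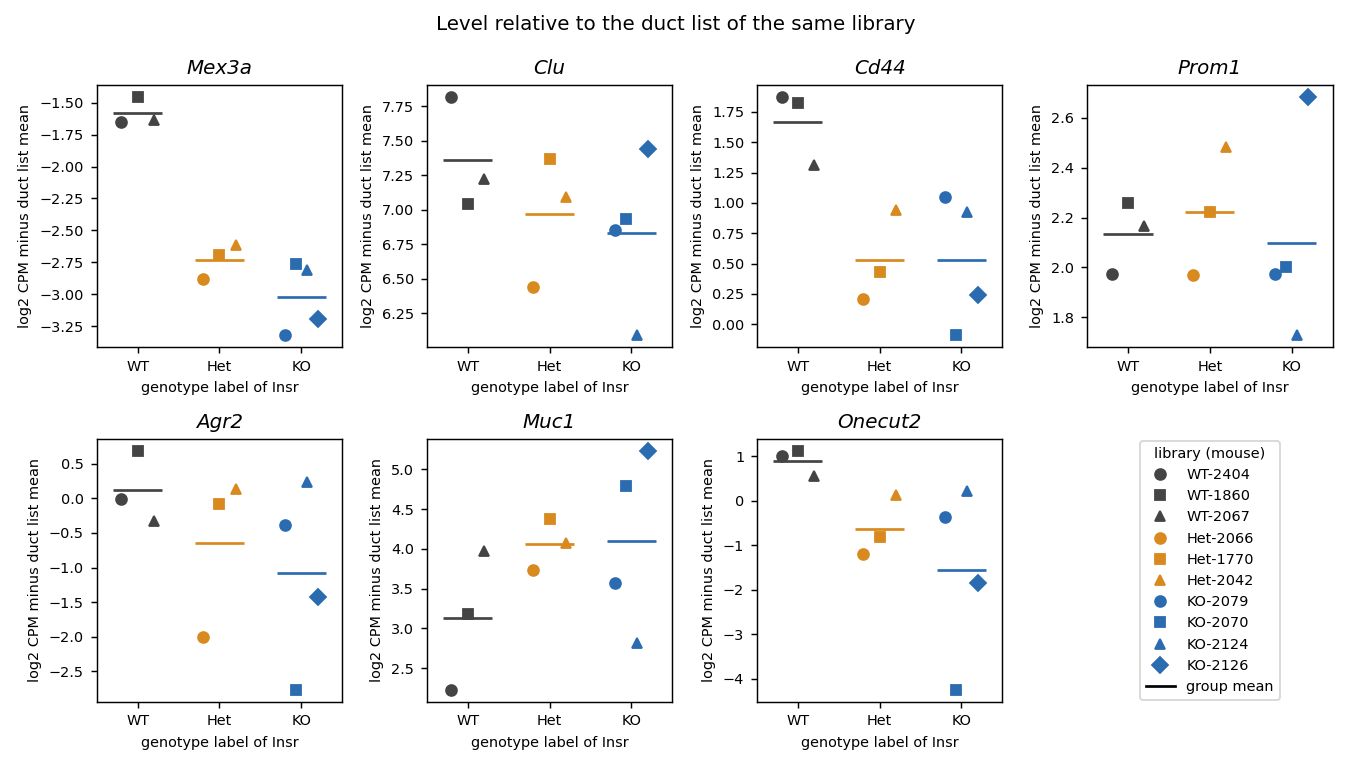
Log2 CPM of each of the 7 genes minus the mean log2 CPM of 16 duct genes in the same library, by genotype label, with 1 point per mouse and a bar at the group mean. Mex3a, Cd44 and Onecut2 have separate WT ranges on this scale, for which no share of all genes was computed, and the Prom1 group means lie within 2.10 to 2.22.

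The genes whose profile over the 10 libraries was nearest to that of each member were found by the root mean square difference of log2 CPM, after each gene was centred on its own mean. For Mex3a these were Pole (difference 0.27), Gen1 (0.33), Sorcs2 (0.35), Itm2a (0.36) and Pak1 (0.37), where the SD of Mex3a itself was 1.15. Pole encodes the catalytic subunit of DNA polymerase epsilon, and Gen1 a resolvase of Holliday junctions. Pole ran from 2.45 to 5.21 CPM in WT and from 0.303 to 1.20 CPM in KO libraries. Both genes had few counts, with 4 (KO-2070) and 3 (KO-2126) for Pole and 1 in each of these libraries for Gen1. At such counts the prior count of 2 weighs on log2 CPM, which limits the likeness. Without WT-2404, 4 of these 5 were again among the nearest 5, and Pak1 was not. Of the 2 nearest genes, both were again among the 2 nearest for Cd44, 1 for Agr2, Muc1 and Onecut2, and 0 for Clu and Prom1. The nearest to Cd44 were Cxcl16 (0.18) and Pmepa1 (0.18), and to Prom1 Krt8 (0.15), a keratin of simple epithelia, and Slc6a8 (0.16). Sox4 (0.25) and Ckap4 (0.25) were nearest to Clu, Foxq1 (0.30) and Mboat1 (0.34) to Agr2, and Ctse (0.36) and Onecut3 (0.39) to Onecut2. Muc1 had other neighbours, Creb3l1 (0.13), which encodes a membrane-bound transcription factor of the secretory pathway, and Mfsd4 (0.14). Every profile comes from the same libraries, so likeness is a description of these 10 pieces.

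Other genes known from injured epithelium lay on the same side as the 6. Of 23 tested genes of the injury list, 23 were lower for KO and 23 for Het against WT, with medians of -1.40 and -1.22. At an unadjusted p under 0.05 there were 19 and 16 (all genes: 13.9% and 11.6%), and 13 and 7 without WT-2404, where the medians were -1.19 and -0.98. Without that library 1297 and 1083 of all 13768 genes tested were at such a p in either direction. After adjustment over all genes, 0 passed in edgeR. Ankrd1, a target of YAP signalling, was at -2.23 (SE 0.42) and Itga2, an integrin subunit that binds collagen, at -2.21 (SE 0.68) in KO against WT. The smallest differences were those of Krt18 (-0.33, SE 0.25) and Anxa5 (-0.58, SE 0.24).

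The progenitor list was divided. Of its 22 tested genes, 14 were lower and 8 higher in KO against WT, with a median of -0.19, and 5 lower (all genes: 13.9%) and 1 higher at an unadjusted p under 0.05. Hmga2, a chromatin protein of embryonic tissue, was at -3.57 (SE 0.88) and Olfm4, a crypt stem cell marker, at -1.50 (SE 0.55). Lrig1, a negative regulator of EGF receptors, was at 0.75 (SE 0.23) and Rnf43, which restrains Wnt receptors, at 0.43 (SE 0.24). The metaplasia list holds stomach-type mucus cell genes and other epithelial genes. It had 16 of 17 tested genes lower in KO against WT, with a median of -1.88, and 16 of 17 in Het against WT, with a median of -1.0. At an unadjusted p under 0.05, 9 were lower in KO against WT (all genes: 13.9%), and 4 without WT-2404 (all genes, either direction: 1297 of 13768). In Het against WT 2 were (all genes: 11.6%). In KO against Het 16 of 17 were lower (median -0.84), with 0 at an unadjusted p under 0.05, and KO-2070 had 7 of the genes at 0 counts. Lcn2, an iron-binding protein of inflamed epithelium (-2.85, SE 0.63), and Onecut3 were lowest and Gkn3 (-1.25, SE 0.85) and Tff2 (1.04, SE 0.53) highest in KO against WT. None of these genes passed after adjustment over all genes in edgeR (0 of 22 and 0 of 17).

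**Figure D5:**
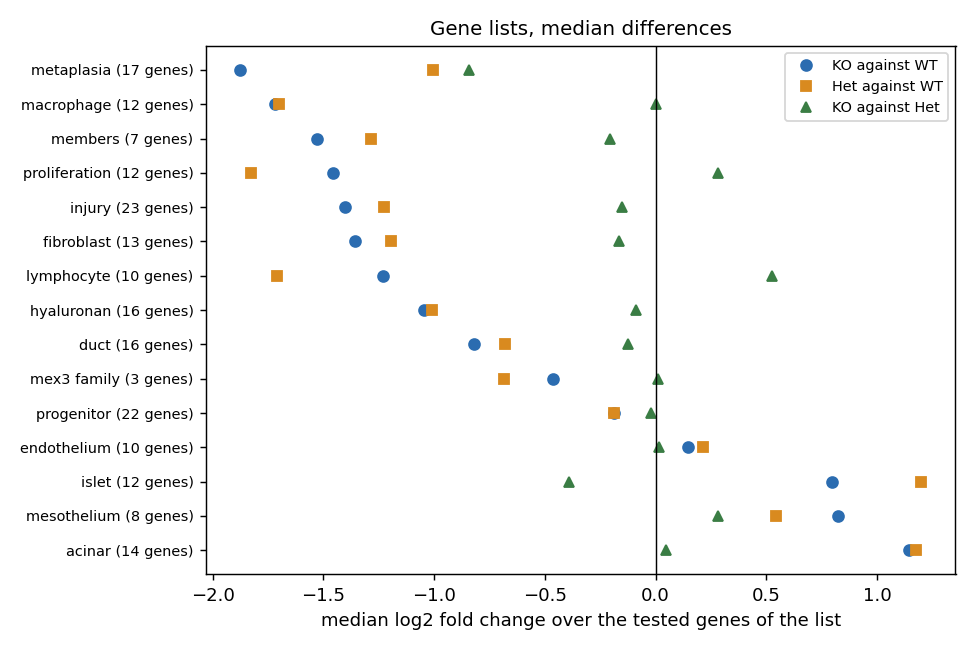
Median log2 fold change over the tested genes of each list in the 3 comparisons, with the number of genes in brackets; the row named members holds the 7 genes. Metaplasia, macrophage, proliferation, injury, fibroblast, lymphocyte and hyaluronan lists lie left of -1 in KO against WT with the 7 genes, and acinar, mesothelium and islet lists lie right of 0.5.

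Cd44 and Clu are also expressed outside epithelium, so marker lists of other cells are given beside them, in which 0 genes passed after adjustment over all genes in edgeR. The 12 macrophage genes summed to 478 to 1943 CPM in WT, 256 to 390 in Het and 146 to 546 in KO libraries, and 12 of 12 were lower in KO against WT (median -1.72, and -0.89 without WT-2404). The 13 fibroblast genes summed to 1330 to 4593 CPM in WT, 543 to 1038 in Het and 476 to 1187 in KO libraries. Of these, 12 of 13 were lower in KO against WT (median -1.36, and -1.11 without WT-2404). The 10 lymphocyte genes summed to 41.6 to 75.6 CPM in WT, 19.6 to 20.5 in Het and 7.37 to 47.2 in KO libraries. No macrophage or fibroblast gene was at 0 in any library, and 4 lymphocyte genes were at 0 in KO-2126. Proliferation genes were lower in 12 of 12 cases (median -1.46, and -0.80 without WT-2404). Acinar genes were higher in 14 of 14 (median 1.14, and 0.62 without WT-2404), islet genes in 11 of 12 (median 0.80, and 0.29 without WT-2404) and mesothelium genes in 7 of 8 (median 0.82). Endothelial genes had a median of 0.15. The part of these cell types in the levels of the 7 genes was not tested.

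Within the KO group, the libraries with less Cd44, Onecut2 and Agr2 were also those with lower sums of macrophage, fibroblast and duct genes and higher sums of acinar genes. KO-2070 and KO-2126 had 146 and 171 CPM of macrophage genes, 476 and 516 of fibroblast genes and 231 and 221 of duct genes. KO-2079 and KO-2124 had 465 and 546, 1187 and 812, and 537 and 426 CPM of the same lists. Acinar genes summed to 733100 and 779400 CPM in KO-2070 and KO-2126, and to 472400 and 271700 CPM in KO-2079 and KO-2124. As plain shares of counts the contrast was smaller, at 46.3% and 46.5% beside 42.0% and 36.9%. The TMM factors were 0.631 and 0.596 in the first pair and 0.889 and 1.36 in the other, and they enter all CPM sums given here. Islet sums did not follow the split, at 8674 and 3686 CPM in the first pair and 4785 and 4521 CPM in the other, nor did endothelial sums, at 312 and 157 CPM beside 229 and 288 CPM. Mex3a had the same order, with 0.922 and 0.606 CPM in KO-2070 and KO-2126 and 1.30 and 1.61 CPM in KO-2079 and KO-2124, on 6 to 35 counts. Clu did not, since KO-2124 was its lowest KO library, nor did Prom1, with 41.7 CPM in KO-2126 above 39.7 in KO-2124. Muc1 had the opposite order, with 194 and 244 CPM in KO-2070 and KO-2126 and 167 and 84.7 CPM in KO-2079 and KO-2124.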

How the data were processed

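Bulk RNA sequencing of 10 mouse pancreas tail pieces was analysed from 1 table. As deposited, its values are raw counts by gene symbol in 1 column per mouse, and 0 columns had no sample. The tissue was frozen and pulverised before RNA isolation, per the labels' protocols, which count 1 more WT mouse, not analysed here. DRAGEN, STAR, Cufflinks and mm10 are named in the submitters' processing notes, with no role given. The counting tool, annotation and use of strand are not given in the sources used here, so overlapping and antisense reads cannot be told apart. A further part of the genotype, shared by all groups, and the value of 1 list gene that the naming rule picks are not reported here.

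The 2 rows that name no gene (2.60% to 8.71% and 0.101% to 0.584% of counts) were left out. Genes passing filterByExpr (minimum count 10) were scaled by TMM and tested with edgeR 4.0.16 (glmQLFit and glmQLFTest, robust, two-sided) in R 4.3.3, in 1 fit over all 10 libraries without covariates. Adjusted p-values (Benjamini-Hochberg) run over all genes tested, with a threshold of 0.05. SEs come from the quasi-F statistic, and a prior count of 2 was added for log2 CPM. Exon lengths are those of merged GENCODE M21 exons. No libraries of 1 group agreed within sampling noise (chi-square per degree of freedom 26.5 to 988). A gene with 0 counts can have a level of up to 0.0501 to 0.395 CPM (3 counts, by library), counting error only.

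The 7 genes, the lists, tests and alternatives (RLE factors, library size alone, library size outside the acinar list, every gene with at least 1 count, only the groups compared, DESeq2 1.42.0, each library left out) were chosen with earlier results of these data known. Named genes are the 7, their paralogs, the 2 lowest and 2 highest of the lists described, by log2 fold change in KO against WT, and the nearest genes (5 for Mex3a, 2 for each other member). List symbols absent from the table were matched through RefSeq synonyms (4 genes). Sequences are from RefSeq, GRCm38.p6.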

Additional observations from a re-analysis of the deposited data

Results flagged for a closer look

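Of 22 measures per library (the 7 genes, Insr and 14 list means), 1 had a KO library far from the other 3, where chance gives about 1.1. KO-2079 had 22.7 CPM of Insr, where its group otherwise ran from 33.3 to 35.4 CPM. The gap from KO-2079 to its nearest neighbour was 0.862 of the whole range in log2 CPM, above Dixon's 95% critical value of 0.829. None of the 7 genes was set apart in this way (0 of 7), although Onecut2 spanned 53.2-fold over the KO libraries. Groups of 3 libraries were not examined.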

How the results depend on the processing

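No paired analysis was possible because the mouse numbers of the groups differ and share none. In KO against WT, the count of genes past the adjusted threshold went from 0 to 2835 by library size alone, to 1009 with DESeq2 and to between 0 and 1933 with single libraries left out (1933 without WT-2067). The count among the 7 genes went from 0 to 4, 4 and 0 to 4, beside 2835 and 1009 of 13688 and up to 1933 of 14172 genes. In Het against WT these were 3125 and 400 of 13688 and up to 1158 of 14172 genes, and 4, 2 and 0 to 1 of the 7. Nothing is read from the counts of the 7. KO against Het stayed at 0 throughout. Library size alone shifted the median of all genes by -1.17 (KO against WT) and -1.36 (Het against WT), and gave -1.05 and -1.01 for Muc1. With single libraries left out, Muc1 ran from -0.18 to 0.40 for KO and from -0.10 to 0.45 for Het against WT. In KO against Het the sign was not stable for 5 genes: Cd44 ran from -0.33 to 0.50, Prom1 from -0.50 to 0.020, Agr2 from -0.78 to 0.34, Muc1 from -0.29 to 0.15 and Onecut2 from -0.74 to 0.59. Library size alone gave 0.24 for Agr2 and 0.31 for Onecut2 there. The cause was not tested. Against WT, the other 6 genes kept a negative log2 fold change under all alternatives run, with Mex3a from -3.58 to -2.18 in KO against WT. The genes were chosen with these comparisons known and the alternatives reuse the same libraries, so nothing is read from the kept signs. DESeq2 gave no adjusted p for 542 genes (KO against WT) and 2131 genes (Het against WT). Mex3a, with 6 counts in KO-2126, and Onecut2, with 2 in KO-2070, are limited most by depth.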
